A study of Mus musculus with 12 samples.

Results

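Messenger RNA of 10 genes of the major histocompatibility complex (MHC) class I pathway was followed in mouse osteoclast cultures: H2-K1, H2-D1, B2m, Tap1, Tap2, Tapbp, Psmb8, Psmb9, Psmb10 and Nlrc5. The genes were chosen by symbol from the 46983 Ensembl genes of the count table, and all 10 were among the 14153 genes that passed the filter on low counts. Osteoclasts are the bone-resorbing cells of the monocyte lineage. Here they were grown from bone marrow monocytes with RANKL (10 ng/ml) and M-CSF (20 ng/ml). On day 1 the cultures were given osteocyte supernatant at a ratio of 1:2 for a period of 24 hours, and RNA was taken on day 3. The 4 groups, with 3 libraries each, were Mincle knockout cultures (KO) with supernatant of necrotic osteocytes (KO necrotic), KO cultures with supernatant of viable osteocytes (KO viable), C57BL/6 wildtype cultures (WT) with necrotic supernatant (WT necrotic) and WT cultures with viable supernatant (WT viable). Mincle, the product of Clec4e, is a myeloid C-type lectin that senses products of damaged cells, and the knockout was on the C57BL/6 background per the labels. The osteocytes had been made necrotic by serum starvation, and none of the groups received starved medium without cells, so products of dying osteocytes cannot be told apart from a change in serum. The comparisons ask whether the class I pathway of osteoclasts responds to necrotic supernatant, and whether the level or the response differs without Mincle.

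In the class I pathway, the proteasome cuts cytosolic proteins into peptides, the TAP transporter moves the peptides into the endoplasmic reticulum, and tapasin helps to load them onto class I heavy chains that pair with beta-2-microglobulin. Interferons induce immunoproteasome subunits that replace constitutive catalytic subunits and change the peptides made. Nlrc5 is a transactivator of class I genes that acts through the X and Y boxes of their promoters together with the RFX, CREB/ATF and NF-Y factors. Class I molecules are carried by nearly all nucleated cells, and class II molecules mainly by professional antigen-presenting cells such as dendritic cells and macrophages.

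Promoter sequence is shown for H2-K1, H2-D1 and B2m, whose RNA levels varied together over the libraries, and for Tap1, whose upstream region is shared with Psmb9. The sequences are RefSeq's for GRCm38.p6 and run 5′ to 3′ on the gene's strand, with position -1 just before the RefSeq start. Each stretch begins 14 bases before the first match and ends 10 bases after the last. The stretches are chr17:34000349-34000472 on the minus strand for H2-K1 (positions -125 to -2), chr17:35262909-35263055 on the plus strand for H2-D1 (-185 to -39), chr2:122147534-122147648 on the plus strand for B2m (-153 to -39) and chr17:34187320-34187484 on the plus strand for Tap1 (-236 to -72). Capitals mark matches, on either strand, to 5 motifs that share no base with each other in these stretches.
H2-K1: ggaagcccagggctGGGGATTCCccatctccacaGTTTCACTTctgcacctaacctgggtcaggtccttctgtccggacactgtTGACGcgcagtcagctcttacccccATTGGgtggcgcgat
H2-D1: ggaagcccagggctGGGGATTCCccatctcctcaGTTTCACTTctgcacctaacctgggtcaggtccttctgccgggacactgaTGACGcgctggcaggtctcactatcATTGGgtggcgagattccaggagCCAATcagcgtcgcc
B2m: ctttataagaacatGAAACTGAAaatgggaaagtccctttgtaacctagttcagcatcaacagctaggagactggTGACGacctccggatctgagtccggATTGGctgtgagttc
Tap1: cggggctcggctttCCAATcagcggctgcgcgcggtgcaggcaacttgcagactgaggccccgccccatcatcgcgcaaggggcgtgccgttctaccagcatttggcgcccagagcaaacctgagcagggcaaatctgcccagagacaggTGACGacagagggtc

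The motifs were GGGGATTCC, a kappaB site of class I genes, GTTTCNNTT and TTCNNTTTC, which are forms of the interferon-stimulated response element, TGACG, the core of CREB/ATF sites, and CCAAT, the NF-Y box. In the 250 bases before the start, GGGGATTCC was present in 0.213% of 32851 RefSeq windows, GTTTCNNTT in 4.95%, TTCNNTTTC in 7.13%, TGACG in 17.8% and CCAAT in 33.8%. H2-K1 and H2-D1 both held GGGGATTCC and GTTTCNNTT, and B2m held TTCNNTTTC (GAAACTGAA on the strand shown). In all 3 genes the CREB/ATF core was followed by an inverted NF-Y box, printed as ATTGG, whose first base lay 25 bases further on. This pair at that distance, on either strand, was found in 30 of the 32851 windows (0.0913%), which belonged to 26 genes, among them the nonclassical class I gene H2-M3. The distance was read off these 3 genes, which held 4 of the 30 windows, so the share is no independent test of its rarity. The Tap1 window held both elements but not at that distance. No window was found for Tap2 and Nlrc5, and 8 of the 10 genes had at least 1. The window of Tapbp held 2 NF-Y boxes and no CREB/ATF core, and those of Psmb8 and Psmb10 held no match to these letters. With group means removed, RNA levels of Tapbp correlated with those of H2-K1, H2-D1 and B2m at r of 0.83 to 0.95. A link between promoter letters and shared variation was not tested. A match is a string of letters and not a measured binding site.

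The targeted gene separated the genotypes. Clec4e averaged 1.94 ± 0.369 counts-per-million (CPM) in KO necrotic and 1.88 ± 0.479 CPM in KO viable libraries, against 25.1 ± 2.98 CPM in WT necrotic and 24.2 ± 1.71 CPM in WT viable libraries (SD, n = 3 each). Libraries held 16382366 to 25429661 counts, apart from WT viable replicate 3 with 49612055. Within groups, log2 CPM of replicates correlated across genes with r from 0.990 to 0.995, and no pair of replicates agreed within sampling noise. Separate animals or cultures for the replicates are not stated in the labels, and the p-values therefore reflect the spread between these libraries, which may be technical. The 12 osteoclast markers summed to at least 15889 CPM and the 10 macrophage markers to at least 6398 CPM in every library. Markers of other cells were low: the 9 dendritic cell markers summed to between 24.2 and 33.7 CPM, the 10 stromal and bone markers to between 19.4 and 92.8 CPM and the 11 lymphoid markers to between 5.10 and 8.80 CPM. The natural killer gene Ncr1 was at 0 in 10 libraries. Among the other lymphoid markers Klrb1c was at 0 in 1 library, and Cd79b and Nkg7 had means of 3.15 and 1.55 CPM. The 8 neutrophil markers summed to between 885 and 1256 CPM.

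The peptide-binding part of the pathway was abundant. B2m, the light chain of every class I molecule, averaged 2164 CPM per kilobase of exon over the 12 libraries (range 1934 to 2362) and ranked 13th of 14110 genes on that scale. H2-D1 and H2-K1, the classical class I heavy chains, followed at 845 CPM per kilobase (766 to 913, rank 39) and 394 CPM per kilobase (365 to 422, rank 109). Tapbp, which encodes tapasin, stood at 57.1 CPM per kilobase (49.5 to 62.0) and the immunoproteasome subunit gene Psmb10 at 45.8 CPM per kilobase (39.1 to 51.4). Each of these 5 genes lay above the next in the order in 12 of 12 libraries. The next 4 were close to each other: Tap2 at 17.5 CPM per kilobase (15.1 to 21.3), Psmb8 at 16.7 (13.8 to 21.6), Tap1 at 16.4 (15.4 to 17.8) and Psmb9 at 15.5 (14.1 to 18.8). Their ranges overlapped: Psmb8 was above Tap1 in 6 of 12 libraries, and Tap2 was above Psmb8, and Tap1 above Psmb9, in 9 of 12. Nlrc5, at 4.35 CPM per kilobase (3.47 to 5.60), was the lowest in every library and ranked 7556th of 14110. The highest library exceeded the lowest by 1.16-fold for H2-K1 and Tap1 and by 1.62-fold for Nlrc5, with the other 7 genes in between.

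Most of the genes lie in the MHC on chromosome 17 (GRCm38). Tapbp (33915899 to 33929292) and H2-K1 (33996017 to 34000347) come first, and H2-D1 (35262730 to 35267499) last. Psmb9 (34181987 to 34187764), Tap1 (34187553 to 34197225), Psmb8 (34197721 to 34201454) and Tap2 (34203527 to 34216321) lie together within 34.3 kb. The class II gene H2-Ab1 begins 41.4 kb beyond the end of Tap2. B2m lies on chromosome 2 (122147686 to 122153083), and Psmb10 (105935735 to 105938444) and Nlrc5 (94434356 to 94527272) on chromosome 8. Exons of Psmb9 and Tap1 overlap by 212 bases on opposite strands, and the strand setting of the counting is not given in the sources used here, so reads there cannot be told apart. Exons of Tapbp, Psmb8 and Tap2 also overlap predicted genes on the opposite strand, which had at most 20 counts in any library (Gm15821, which overlaps Tap2 by 533 bases). Gm19412 overlaps 904 exon bases of Tapbp (24.9%), and Gm20496 overlaps 498 of Psmb8 (14.7%). A low count of the partner does not show how reads there were treated. Partners with more reads were Zbtb22, which overlaps Tapbp by 149 bases on the same strand and had 676 to 2188 counts, and 9330175E14Rik, which overlaps Nlrc5 by 78 bases on the opposite strand and had 43 to 199 counts. Of the 50-base words of the longest transcript, 14.3% in H2-D1 and 8.11% in H2-K1 also occur in transcripts of other genes, mostly other class I genes, and their counts are uncertain to that extent. The share was 2.00% or less in the other 8 genes.

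The heavy and light chains did not pass the test in any comparison. H2-K1 had 1080.2, 1178 and 1099 CPM in KO necrotic, 1073, 1195 and 1154 CPM in KO viable, 1241, 1178 and 1073 CPM in WT necrotic and 1216, 1193 and 1203 CPM in WT viable libraries. H2-D1 had 2094, 2252 and 2075 CPM in KO necrotic, 2038, 2356 and 2249.5 CPM in KO viable, 2348, 2119 and 1975 CPM in WT necrotic and 2324, 2166 and 2159 CPM in WT viable libraries. B2m had 1755, 1867 and 1754 CPM in KO necrotic, 1747, 1984 and 1833 CPM in KO viable, 1957, 2032 and 1663 CPM in WT necrotic and 1997, 1859 and 1884 CPM in WT viable libraries. Necrotic and viable libraries overlapped in both genotypes for all 3 genes, and the lowest WT necrotic library was the third replicate for all 3 genes. For necrotic against viable supernatant, the log2 fold changes in KO were -0.03 for H2-K1 (95% interval -0.15 to 0.10), -0.05 for H2-D1 (-0.19 to 0.09) and -0.05 for B2m (-0.19 to 0.09). In WT they were -0.05 for H2-K1 (-0.17 to 0.07), -0.05 for H2-D1 (-0.19 to 0.09) and -0.02 for B2m (-0.17 to 0.12). Adjusted p-values of edgeR's quasi-likelihood test ran from 0.645 to 0.874 for these 6 changes.

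**Figure D1:**
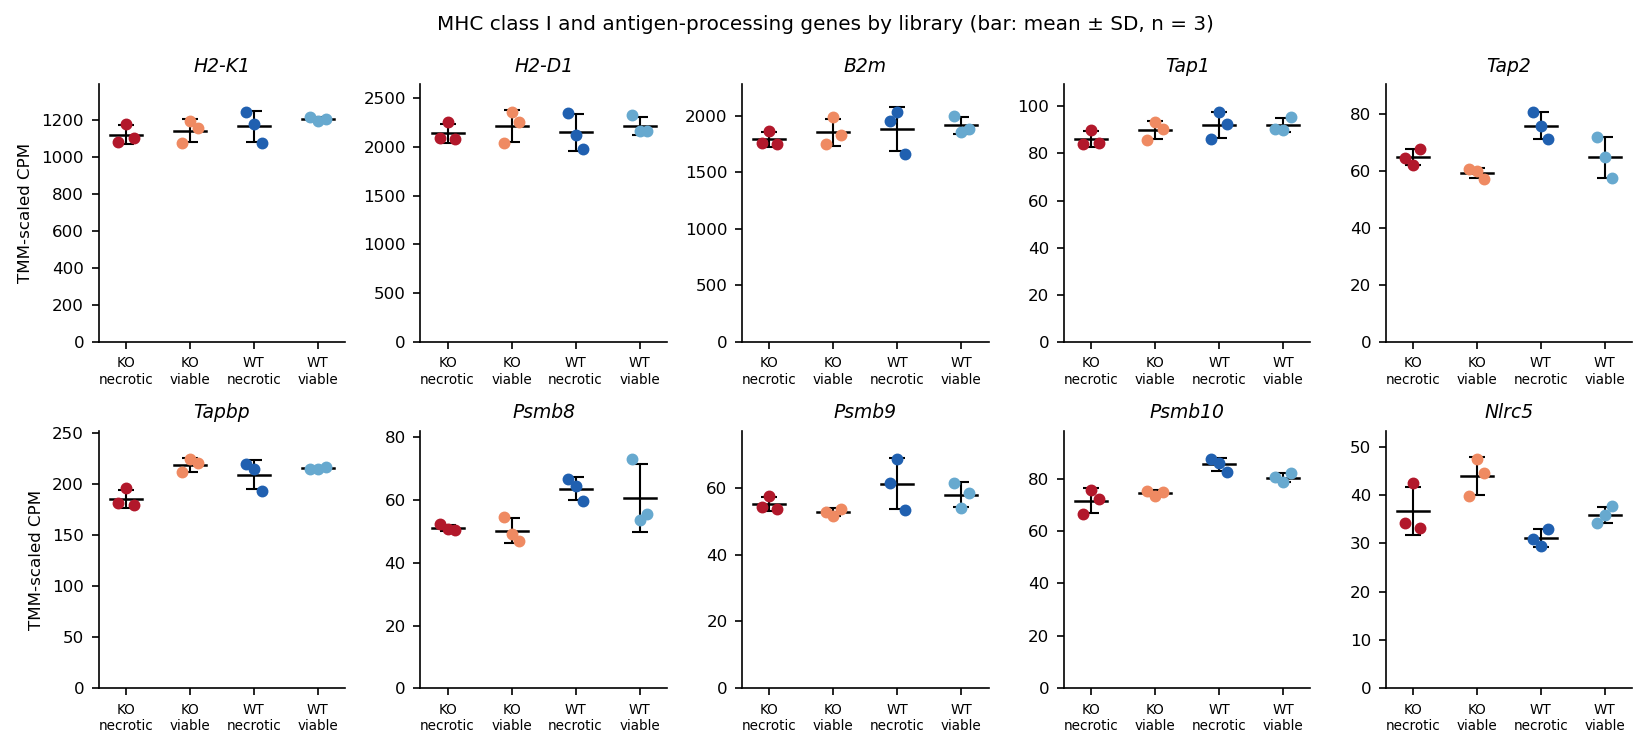
TMM-scaled counts-per-million (CPM, vertical axis from 0, its own scale in each panel) of the 10 genes in each of the 12 libraries, by group; horizontal bars are group means and error bars SD (n = 3). Tapbp is lowest in the 3 KO necrotic libraries except that WT necrotic replicate 3 (193 CPM) lies below KO necrotic replicate 2 (196 CPM), and H2-K1, H2-D1, B2m and Tap1 overlap in each of the 4 pairs of groups compared.

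Tapbp was the 1 gene of the 10 that passed the test for a response in KO cultures. It had 181, 196 and 179.7 CPM in KO necrotic libraries, against 211, 225 and 220.1 CPM in KO viable libraries, and these groups did not overlap. In WT it had 219, 215 and 193 CPM in necrotic libraries, against 215, 215 and 216 CPM in viable libraries, which overlapped. Tapbp fell in KO (log2 fold change -0.24, 0.848-fold, SE 0.05, adjusted p = 0.0130 by edgeR's quasi-likelihood test). In WT the log2 fold change was -0.04 (SE 0.05, adjusted p = 0.657), and the difference between the responses was -0.19 (SE 0.07, 95% interval -0.35 to -0.04), with an adjusted p of 0.596. The KO call was lost without KO necrotic replicate 1, KO necrotic replicate 3, KO viable replicate 2 or KO viable replicate 3, with adjusted p-values of 0.0509 to 0.0703.

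Of the 10 genes, 1 passed in KO (Tapbp, lower), where 7.43% of all 14153 genes passed. In WT 0 of 10 passed with edgeR's quasi-likelihood test, where 9.31% of all genes passed. By the same test 2 of 10 (Tap2 and Nlrc5) had an unadjusted p under 0.05, beside 3577 of the 14153 genes. DESeq2 and limma voom each called 1 gene of the 10 in WT, Tap2. Over all genes, the alternative fits that kept every library of the compared groups called 359 to 1829. The median log2 fold change of the 10 genes was -0.05 in KO and -0.01 in WT, beside 0.00 and -0.01 over all genes. For the difference between the KO and the WT response, 0 of 10 passed with edgeR, DESeq2 or limma voom, where 0% of all genes passed. With edgeR 1 of 10 (Tapbp) had an unadjusted p under 0.05, beside 1064 of the 14153 genes. All 10 genes had 95% intervals within 1.5-fold in either direction in every comparison.

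**Figure D2:**
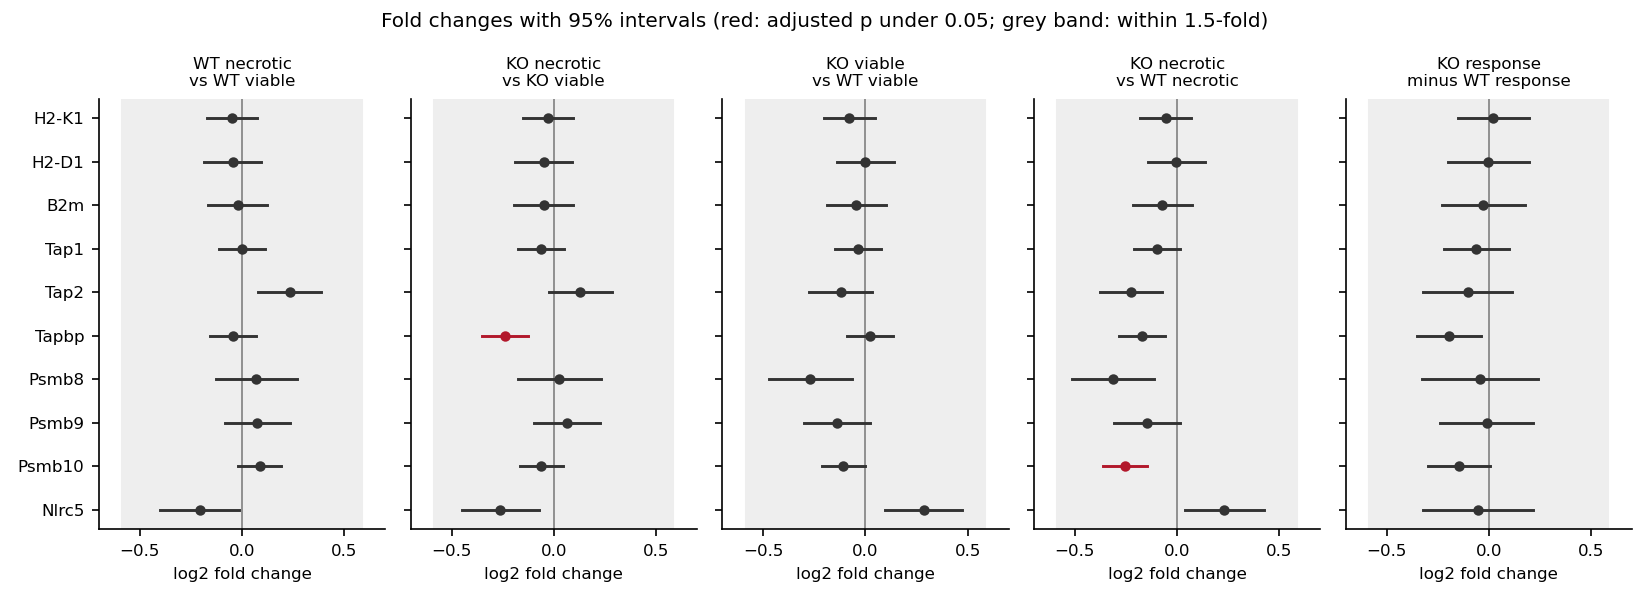
Log2 fold changes (points) with 95% intervals (lines) of the 10 genes in the 5 comparisons; red marks an adjusted p under 0.05 and the grey band changes within 1.5-fold. All intervals lie inside the band, and the red points are Tapbp in KO necrotic against KO viable and Psmb10 in KO necrotic against WT necrotic.

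Tap2 and Nlrc5 had changes of opposite sign. Tap2, a subunit of the peptide transporter, had 64.6, 62.0 and 67.6 CPM in KO necrotic libraries, against 60.6, 60.0 and 57.1 CPM in KO viable libraries. In WT it had 80.6, 75.6 and 71.1 CPM in necrotic libraries, against 72.0, 64.9 and 57.4 CPM in viable libraries. Every necrotic KO library lay above every viable one, and in WT the lowest necrotic library lay below the highest viable one. The log2 fold changes were 0.13 in KO (SE 0.07, adjusted p = 0.320 by edgeR's quasi-likelihood test) and 0.23 in WT (SE 0.07, adjusted p = 0.0542). Its partner Tap1, which had 84.1, 90.1 and 84.3 CPM in KO necrotic, 85.9, 93.4 and 90.4 CPM in KO viable, 86.3, 97.6 and 92.5 CPM in WT necrotic and 90.4, 90.2 and 95.4 CPM in WT viable libraries, overlapped in each of the 4 pairs of groups compared.

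Nlrc5, the transactivator of class I genes, had 34.3, 42.5 and 33.3 CPM in KO necrotic libraries, against 39.8, 47.6 and 44.6 CPM in KO viable libraries. In WT it had 31.0, 29.4 and 33.1 CPM in necrotic libraries, against 34.3, 35.9 and 37.7 CPM in viable libraries. The WT groups did not overlap, and in KO the second necrotic replicate lay above the first viable one. The log2 fold changes were -0.26 in KO (SE 0.09, adjusted p = 0.0899 by edgeR's quasi-likelihood test) and -0.21 in WT (SE 0.09, adjusted p = 0.164).

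Averaged over both genotypes, a contrast chosen after the data were seen, 3 of the 10 genes passed the test for necrotic against viable supernatant, where 19.4% of all genes passed. Tap2 rose (mean log2 fold change 0.18, SE 0.05, adjusted p = 0.0216 by edgeR's quasi-likelihood test). Tapbp fell by 0.14 on the log2 scale (SE 0.04, adjusted p = 0.0158). Nlrc5 fell by 0.23 on the log2 scale (SE 0.06, adjusted p = 0.0174), and with offsets for transcript length and GC content its value was -0.15 (adjusted p = 0.0671). Nlrc5 has the longest exon sequence of the 10 genes (8493 bases). Leaving out KO necrotic replicate 1 or 3 raised the adjusted p of Nlrc5 to 0.0502 and 0.0507, and leaving out KO necrotic replicate 3, KO viable replicate 3 or WT viable replicate 3 raised that of Tap2 to between 0.0519 and 0.0628.

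Of the 3 immunoproteasome subunit genes, 1 passed the test by genotype with necrotic supernatant. Psmb10, which encodes the inducible counterpart of Psmb7, had 66.7, 75.9 and 72.4 CPM in KO necrotic libraries, against 87.7, 86.0 and 82.7 CPM in WT necrotic libraries. With viable supernatant it had 75.4, 73.4 and 75.1 CPM in KO, against 80.5, 78.6 and 82.0 CPM in WT. KO and WT did not overlap under either supernatant. With necrotic supernatant Psmb10 was lower in KO (log2 fold change -0.25, 0.838-fold, SE 0.05, adjusted p = 0.00922 by edgeR's quasi-likelihood test), and the value with viable supernatant was -0.11 (SE 0.05, adjusted p = 0.198). With length and GC offsets the values were -0.17 (adjusted p = 0.0766) with necrotic and -0.0087 (adjusted p = 0.953) with viable supernatant. Without KO necrotic replicate 1 the value with necrotic supernatant was -0.20 (adjusted p = 0.0625).

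Psmb8, the inducible counterpart of Psmb5, had 52.2, 50.7 and 50.4 CPM in KO necrotic libraries, against 66.7, 64.3 and 59.8 CPM in WT necrotic libraries, with no overlap. With viable supernatant it had 54.6, 49.3 and 46.8 CPM in KO, against 73.1, 53.5 and 55.5 CPM in WT, where the first WT replicate stood far above the others and the groups overlapped. The log2 fold changes were -0.31 (SE 0.09, adjusted p = 0.0543 by edgeR's quasi-likelihood test) with necrotic and -0.27 (SE 0.09, adjusted p = 0.0985) with viable supernatant. Without that library, WT viable replicate 1, the adjusted p with necrotic supernatant was 0.00547, and the value with viable supernatant was -0.12 (adjusted p = 0.377). With necrotic supernatant Psmb8 passed with DESeq2 (adjusted p = 0.0179) and with the compared groups alone (adjusted p = 0.00868). Psmb9, the inducible counterpart of Psmb6, had 54.1, 57.5 and 53.7 CPM in KO necrotic, 52.7, 51.5 and 53.7 CPM in KO viable, 61.5, 68.7 and 53.4 CPM in WT necrotic and 61.4, 54.0 and 58.5 CPM in WT viable libraries, and its log2 fold changes of -0.15 with necrotic and -0.14 with viable supernatant did not pass (adjusted p = 0.233 and 0.284).

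In KO against WT with necrotic supernatant, 1 of 10 genes passed with edgeR's quasi-likelihood test (Psmb10, lower), where 8.13% of all genes passed. By the same test 5 of 10 had an unadjusted p under 0.05, beside 3626 of the 14153 genes. DESeq2 also called Tap2, Tapbp and Psmb8, each lower in KO. Over all genes, the alternative fits that kept every library of the compared groups called 645 to 1857. With viable supernatant 0 of 10 passed with edgeR's quasi-likelihood test, where 5.84% of all genes passed. By the same test 3 of 10 (Psmb8, Psmb10 and Nlrc5) had an unadjusted p under 0.05, beside 3375 of the 14153 genes. DESeq2 called 1 of the 10 (Nlrc5) and limma voom called 0. Over all genes, the alternative fits that kept every library of the compared groups called 449 to 1618 with viable supernatant. Nlrc5 stood at 33.3 to 42.5 CPM in KO necrotic, against 29.4 to 33.1 CPM in WT necrotic libraries, and at 39.8 to 47.6 CPM in KO viable, against 34.3 to 37.7 CPM in WT viable libraries, with no overlap under either supernatant. Its log2 fold changes were 0.23 (SE 0.09, adjusted p = 0.126) and 0.28 (SE 0.09, adjusted p = 0.0687) by edgeR's quasi-likelihood test. Without KO necrotic replicate 2 the value with necrotic supernatant was 0.11 (adjusted p = 0.453), and with length and GC offsets it was 0.14 (adjusted p = 0.319).

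Averaged over both supernatants, again a contrast chosen after the data were seen, 4 of the 10 genes passed for KO against WT, where 20.5% of all genes passed. Nlrc5 was higher in KO (mean log2 fold change 0.26, SE 0.06, adjusted p = 0.0111 by edgeR's quasi-likelihood test). Psmb8 was lower in KO at -0.29 (SE 0.07, adjusted p = 0.00765), Psmb10 at -0.18 (SE 0.04, adjusted p = 0.00305) and Tap2 at -0.17 (SE 0.05, adjusted p = 0.0265). With length and GC offsets Nlrc5 (0.17, adjusted p = 0.0469) and Psmb8 (-0.23, adjusted p = 0.0201) passed, and Psmb10 (-0.09, adjusted p = 0.122) and Tap2 (-0.12, adjusted p = 0.113) did not. The Tap2 call was also lost when any of KO necrotic replicate 1 or 2, KO viable replicate 2 or 3, WT necrotic replicate 1 or WT viable replicate 1 or 2 was left out (adjusted p = 0.0524 to 0.0674). Sums of osteoclast and of neutrophil markers also differed between the genotypes, without overlap under either supernatant. Sums of macrophage markers and of stromal and bone markers were apart with viable supernatant and overlapped with necrotic supernatant. Dendritic cell and lymphoid marker sums overlapped between the genotypes under both. Osteoclast markers summed to between 20122 and 20980 CPM in KO necrotic, against 22699 to 23991 CPM in WT necrotic libraries, and to between 15889 and 16197 CPM in KO viable, against 17925 to 18273 CPM in WT viable libraries. Of the 12, 5 were lower in KO in the average over supernatants, among them Mmp9 (-0.24, adjusted p = 2.51e-05), Acp5 (-0.20, adjusted p = 0.000482), Ctsk (-0.17, adjusted p = 0.00633) and Ocstamp (-0.16, adjusted p = 0.00841). Macrophage markers summed to between 7798 and 8284 CPM in KO necrotic, against 7990.4 to 8130.3 CPM in WT necrotic libraries, and to between 7342 and 7374 CPM in KO viable, against 6398 to 7017 CPM in WT viable libraries. Stromal and bone markers summed to between 19.4 and 35.7 CPM in KO necrotic, against 30.8 to 46.1 CPM in WT necrotic libraries, and to between 24.4 and 46.0 CPM in KO viable, against 59.8 to 92.8 CPM in WT viable libraries. Neutrophil markers summed to between 885 and 932 CPM in KO necrotic, against 1014 to 1155 CPM in WT necrotic libraries, and to between 975 and 1059 CPM in KO viable, against 1190.2 to 1256 CPM in WT viable libraries. Their part in the genotype differences of the class I genes was not tested. In such bulk cultures fewer cells of a type and less RNA per cell cannot be told apart.

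The constitutive proteasome genes showed the same direction by genotype. Of 14 genes of the core particle, 5 were lower in KO with viable supernatant (Psma3, Psma6, Psmb4, Psmb6 and Psmb7) and 2 with necrotic supernatant (Psma5 and Psmb1), and 0 were higher, where 5.84% and 8.13% of all genes passed in either direction. Psmb6 had a log2 fold change of -0.27 (adjusted p = 0.0287) and Psmb7 one of -0.23 (adjusted p = 0.0184) with viable supernatant. WT viable replicate 1, which was high for Psmb8, was also the highest WT viable library for Psmb5, Psmb6 and Psmb7. It had 80.6 CPM for Psmb5 (61.1 and 59.3 in replicates 2 and 3), 186.6 for Psmb6 (152.2 and 157.8) and 99.5 for Psmb7 (93.4 and 88.5). Leaving out a library and length and GC offsets were not examined for these 14 genes. Averaged over both supernatants, 12 of 14 were lower, where 20.5% of all genes passed, among them Psmb7 (-0.18, adjusted p = 0.00302), Psma5 (-0.18, adjusted p = 0.00499), Psma6 (-0.18, adjusted p = 0.00527) and Psmb6 (-0.20, adjusted p = 0.00641), and the median log2 fold change of the 14 was -0.16, beside -0.01 over all genes. The ratio of an inducible subunit to its constitutive counterpart does not depend on the scaling of the libraries. Psmb8 to Psmb5, counted by CPM, averaged 0.841 ± 0.0291 in KO necrotic, 0.918 ± 0.0105 in KO viable, 0.928 ± 0.0317 in WT necrotic and 0.906 ± 0.0293 in WT viable libraries (SD, n = 3 each). The 3 KO necrotic libraries, at 0.809 to 0.867, lay below every other library. The log2 difference KO minus WT was -0.14 with necrotic and 0.02 with viable supernatant. None of the 3 ratios (Psmb8 to Psmb5, Psmb9 to Psmb6, Psmb10 to Psmb7) passed an exact permutation test, two-sided and stratified by supernatant, for KO minus WT (adjusted p = 0.280 to 0.930 over 10 ratio tests). The mean log2 differences over both supernatants were -0.06, 0.06 and 0.0047. For Psmb9 to Psmb6 the log2 difference was -0.0036 with necrotic and 0.12 with viable supernatant. For Psmb10 to Psmb7 it was -0.12 with necrotic and 0.13 with viable supernatant. The mean of each of the 3 ratios therefore joins values of opposite sign. For necrotic minus viable supernatant, stratified by genotype, adjusted p-values of the exact permutation test were 0.371 to 0.567. Leaving out WT necrotic replicate 2 brought Psmb9 to Psmb6 in KO minus WT to an adjusted p of 0.0333.

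**Figure D3:**
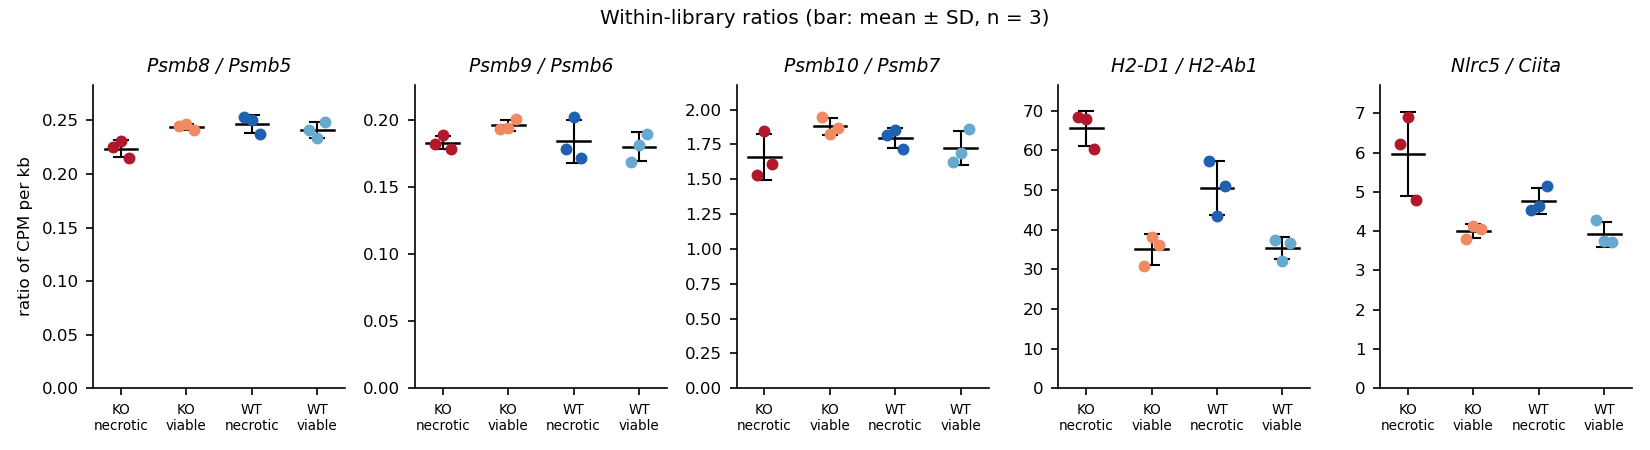
Ratios of levels within a library, as CPM per kilobase of exon on a vertical axis from 0, by group; bars are means and error bars SD (n = 3). Psmb8 to Psmb5 is lowest in the 3 KO necrotic libraries, and H2-D1 to H2-Ab1 is higher in all 3 necrotic than in all 3 viable libraries of each genotype.

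Class II genes, by contrast, fell with necrotic supernatant. Of 7 class II and related genes, 6 fell in KO and 5 in WT, where 7.43% and 9.31% of all genes passed in either direction. Ciita, the class II transactivator and a relative of Nlrc5, had log2 fold changes of -0.82 in KO (SE 0.11, adjusted p = 0.000535) and -0.51 in WT (SE 0.11, adjusted p = 0.0103) by edgeR's quasi-likelihood test. H2-Ab1, a class II beta chain, had log2 fold changes of -0.96 in KO (SE 0.08, adjusted p = 4.09e-05) and -0.55 in WT (SE 0.08, adjusted p = 0.000873). The class II chain genes H2-Aa (-0.93 in KO, adjusted p = 7.36e-05; -0.62 in WT, adjusted p = 0.000841) and H2-Eb1 (-0.85 in KO, adjusted p = 0.000101; -0.65 in WT, adjusted p = 0.000631) fell too, as did Cd74, the invariant chain (-0.83 in KO, adjusted p = 0.000105; -0.40 in WT, adjusted p = 0.0108). H2-DMb1, a class II peptide exchange chain, did not pass in either genotype. H2-D1 was present at 68.7, 68.1 and 60.7 times the CPM of H2-Ab1 in KO necrotic libraries, against 30.8, 38.4 and 36.3 times in KO viable libraries. In WT it was present at 57.4, 43.7 and 51.2 times the CPM of H2-Ab1 in necrotic libraries, against 37.4, 32.3 and 36.9 times in viable libraries. The groups did not overlap in either genotype, and the ratio rose by 0.71 on the log2 scale (0.91 in KO and 0.51 in WT). The exact permutation test, two-sided and stratified by genotype, gave p = 0.005, the smallest that its 400 permutations allow, and an adjusted p of 0.025 over 10 ratio tests.

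The 2 transactivators also separated from each other. Nlrc5 was present at 5.53, 6.15 and 4.28 times the CPM of Ciita in KO necrotic libraries, against 3.39, 3.69 and 3.61 times in KO viable libraries. In WT the values were 4.05, 4.12 and 4.59 times in necrotic libraries, against 3.81, 3.34 and 3.32 times in viable libraries. The ratio was higher in every necrotic than in every viable library of the same genotype, by 0.42 on the log2 scale (0.56 in KO and 0.29 in WT, p = 0.005 and adjusted p = 0.025 by the same exact permutation test). Both ratios were chosen after the fall of the class II genes was known, so they describe its size against class I and are no independent evidence of it. With necrotic supernatant the 9 dendritic cell markers summed to between 24.5 and 26.3 CPM in KO and between 24.2 and 26.4 CPM in WT, against 29.7 to 33.2 CPM in KO viable and 31.0 to 33.7 CPM in WT viable libraries. The lymphoid markers summed to between 5.62 and 6.45 CPM in KO necrotic and 5.10 and 5.80 CPM in WT necrotic, against 6.68 to 8.80 CPM in KO viable and 7.10 to 8.58 CPM in WT viable libraries. Stromal, bone and neutrophil markers had lower sums with necrotic supernatant, as given above, although the stromal and bone sums overlapped in KO. Osteoclast markers, whose sums are also given above, rose with necrotic supernatant, 12 of 12 in each genotype, where 7.43% of all genes passed in KO and 9.31% in WT. Their median log2 fold change was 0.39 in KO and 0.38 in WT. They include Calcr (0.61 in KO and 0.59 in WT), Acp5 (0.39 in KO and 0.51 in WT), Ctsk (0.46 in KO and 0.39 in WT), Slc9b2 (0.43 in KO) and Ocstamp (0.46 in WT), with adjusted p-values of 0.000603 or less by edgeR's quasi-likelihood test. Macrophage marker sums were higher in every necrotic than in every viable library of the same genotype, but the list was mixed. Of its 10 genes, 5 rose and 1 fell in KO, and 6 rose and 1 fell in WT, where 7.43% and 9.31% of all genes passed. The lowest log2 fold change on the list was -1.04 in KO and -0.77 in WT. The part of these shifts in the changes of class I and class II genes was not tested.

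**Figure D4:**
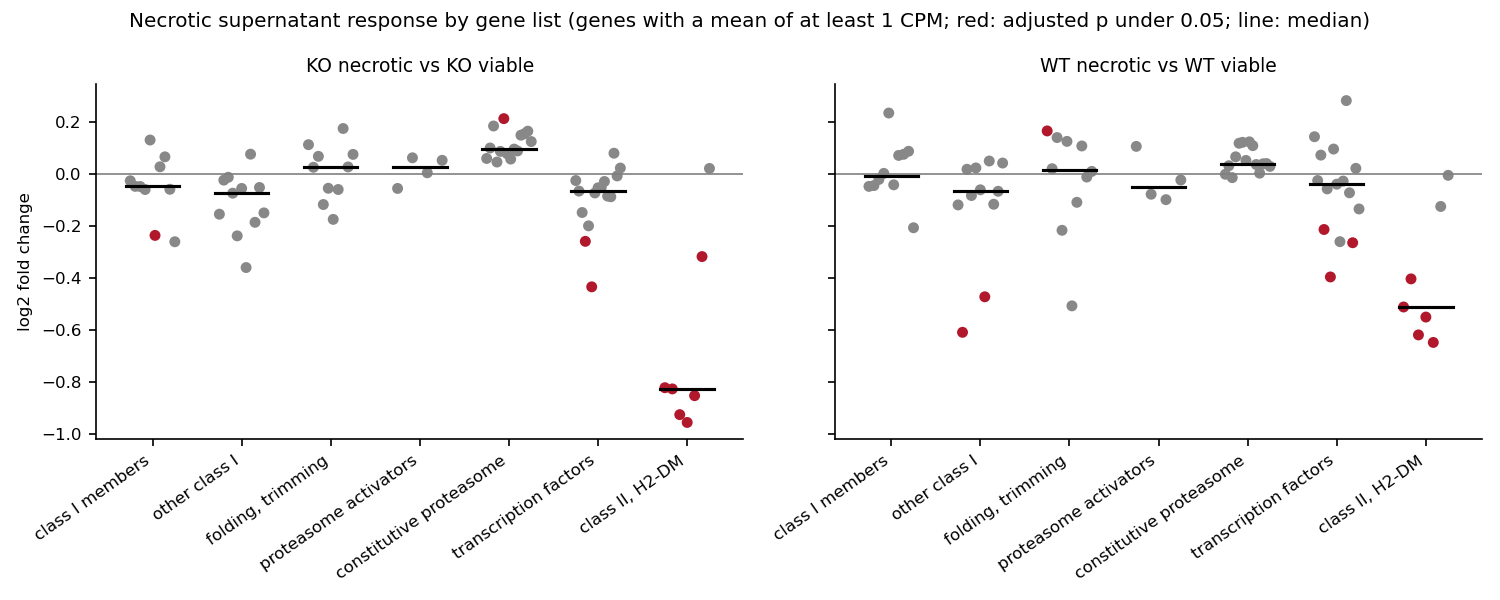
Log2 fold changes for necrotic against viable supernatant in KO (left) and WT (right), each point 1 gene with a mean of at least 1 CPM, by gene list; red marks an adjusted p under 0.05 and black lines the list medians. The class I genes lie near 0 in both genotypes, and most class II genes lie below -0.40.

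Of 15 genes for factors that act on class I promoters, 2 fell with necrotic supernatant in KO and 3 in WT, beside 7.43% and 9.31% of all genes passing in either direction. Stat2 and Irf9, which carry type I interferon signals to DNA, fell in both genotypes: Stat2 had log2 fold changes of -0.43 in KO (SE 0.07, adjusted p = 0.00276) and -0.40 in WT (SE 0.07, adjusted p = 0.00495), and Irf9 of -0.26 in KO (SE 0.06, adjusted p = 0.0216) and -0.21 in WT (SE 0.06, adjusted p = 0.0463) by edgeR's quasi-likelihood test. Nfyb, a subunit of NF-Y, fell in WT (-0.27, SE 0.07, adjusted p = 0.0372) and had a value of 0.08 in KO (adjusted p = 0.598). Irf1, an interferon-induced activator of class I genes, had values of -0.03 in KO and 0.14 in WT, neither of which passed. With necrotic supernatant Creb1 (0.28, adjusted p = 0.00768) and the RFX subunit gene Rfx5 (0.34, adjusted p = 0.0334) were higher in KO than in WT, and Irf1 was lower (-0.20, adjusted p = 0.0388). With viable supernatant Irf8, a factor of the monocyte lineage, was higher in KO (0.21, SE 0.05, adjusted p = 0.0393).

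Of 14 nonclassical class I genes, 13 were tested, 0 passed for necrotic against viable supernatant in KO with edgeR's quasi-likelihood test, and 2 fell in WT, beside 7.43% and 9.31% of all genes passing in either direction. These were H2-T24 (log2 fold change -0.47, SE 0.12, adjusted p = 0.0243) and H2-Q6 (-0.61, SE 0.18, adjusted p = 0.0440), whose values in KO were -0.36 (adjusted p = 0.0804) and -0.02 (adjusted p = 0.956). H2-Q6 shares transcript sequence with H2-D1, so reads can have been split between them. Of 10 genes of peptide trimming, folding and transport, Calr, the chaperone calreticulin, rose in WT (0.16, SE 0.05, adjusted p = 0.0454; 0.11 in KO, adjusted p = 0.189), and Lnpep, an aminopeptidase of endosomal cross presentation, was higher in KO than in WT with necrotic supernatant (0.76, SE 0.17, adjusted p = 0.0166). The 4 proteasome activator genes, Psme1 and Psme2 of the interferon-inducible activator among them, did not pass in any of the 5 comparisons by edgeR's quasi-likelihood test, with log2 fold changes between -0.16 and 0.15.

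Over the 12 libraries, levels of H2-K1, H2-D1 and B2m varied together. Over log2 CPM of 12 libraries, Pearson's r was 0.87 for H2-K1 and B2m (Spearman's rho 0.80), 0.84 for H2-K1 and H2-D1 (rho 0.84) and 0.77 for H2-D1 and B2m (rho 0.73). Permutation p-values of r, adjusted over 45 pairs, were 0.0126, 0.0126 and 0.0352, and those of rho were 0.0342, 0.0241 and 0.0738. With the 2 libraries farthest from the median left out, r was 0.79, 0.73 and 0.62, and with group means removed it was 0.86, 0.94 and 0.80. Tapbp was similarly close to these genes with group means removed, at r of 0.95 with H2-K1, 0.83 with H2-D1 and 0.87 with B2m. Without that removal its r with them was 0.69, 0.59 and 0.67 (adjusted permutation p = 0.0610, 0.131 and 0.0644). Tap2 and Nlrc5 ran opposite to each other, with r of -0.84 (adjusted permutation p = 0.0126) and rho of -0.90 (adjusted permutation p = 0.00540), r of -0.77 without the 2 farthest libraries and r of -0.54 with group means removed. Tap2 and Psmb8 had an r of 0.79 (adjusted permutation p = 0.0269) and a rho of 0.72 (adjusted permutation p = 0.0759). The other 40 of the 45 pairs did not pass for r, and 38 of all 45 had a positive r. The libraries fall into 4 groups, which the permutations did not keep apart, so these p-values take in differences between groups. No p-value was computed for r with group means removed. Values within a library share its depth, scaling and RNA quality.

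Outside the pathway, the genes whose log2 CPM was most like the mean standardised pattern of the 10 genes over 12 libraries were Max (r = 0.94), Maz (0.90), Gpatch3 (0.90), Ogfr (0.87), Eepd1 (0.86), Iah1 (0.85), Rfxap (0.85), Nfkbib (0.85), Mif4gd (0.85) and Dexi (0.84). The pattern was highest in WT necrotic replicates 1 and 2 (0.80 and 0.79 standardised units) and WT viable replicate 1 (0.76), and lowest in KO necrotic replicates 1 and 3 (-0.95 and -0.85). WT necrotic replicate 3 stood at -0.45, apart from its group. Nlrc5 was the gene of the 10 least like the pattern (r = -0.15), and B2m (0.90) and H2-K1 (0.89) were the most like it.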

How the data were processed

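RNA of 12 osteoclast libraries, 3 in each of 4 groups taken from the sample titles, was sequenced as paired-end reads from NEBNext Ultra libraries, per the labels' protocols. The authors deposited raw counts, which are whole numbers, for each of 46983 Ensembl genes. Per the submitters' processing notes the tools were CASAVA, HISAT2 2.0.5 and HTSeq 0.6.1 on GRCm38. The sources used here do not give the strand setting, the annotation release or the treatment of multi-mapping reads. Symbols, positions, exon lengths and GC contents came from GENCODE release M21 (46488 identifiers matched, 495 not).

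The filterByExpr rule of edgeR 4.0.16 in R 4.3.3 kept 14153 genes. All 12 libraries entered 1 quasi-likelihood model of 4 group means with TMM factors (0.971 to 1.02), which left 8 residual degrees of freedom. Tests were two-sided, p-values were adjusted by Benjamini-Hochberg across the whole table, and a gene was called at an adjusted p under 0.05. An adjusted p with no test named is from this fit, SE is the standard error of a log2 fold change, and levels are TMM-scaled CPM, which divide the deposited counts by the scaled library size. A count of 0 allows up to 3 counts, or 0.0605 to 0.183 CPM, for counting error only. Correlations used log2 CPM with a prior count of 2 and 100000 permutations. Promoter windows were RefSeq's, from 250 bases before to 50 after the start. The fit was tested on simulated data.

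Named are all 10 genes, Clec4e, of each other list whose called genes are counted, at least all genes past the threshold or the 4 with the smallest p, and the 10 genes with at least 5 CPM most like the pattern. Marker lists other than that of osteoclasts are outside this rule. They are given as sums, with counts of called macrophage markers and levels of some lymphoid markers. The genes and lists were chosen with earlier results of these data known. Alternatives were median-ratio (RLE) and upper-quartile factors, DESeq2 1.42.0, limma 3.58.1 voom, omission of the filter, a minimum of 5 CPM in 3 libraries, the compared groups alone, a replicate block, the deepest library thinned, length and GC offsets, and leaving out each library. The averaged contrasts and the ratios were added after the data were seen.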

Additional observations from a re-analysis of the deposited data

How the results depend on the processing

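Directions of the called genes did not reverse under any alternative run. Necrotic against viable supernatant in WT, where 0 of 10 genes passed, gave 1 (Tap2) without a filter, with DESeq2, with limma voom and with the replicate block, and 0 to 2 when a library was left out (2 without WT viable replicate 1). In KO, where 1 passed, 2 passed without a filter and with DESeq2 (Nlrc5 added), and 0 to 2 when a library was left out. KO against WT with viable supernatant, where 0 passed, gave 2 (Psmb8 and Nlrc5) without a filter, 1 (Nlrc5) with DESeq2 and 1 with the replicate block (Psmb8, adjusted p = 0.0471), and 0 to 1 when a library was left out. KO against WT with necrotic supernatant, where 1 passed, gave 5 without a filter, 4 with DESeq2, 3 with upper-quartile factors, with the compared groups alone or with the replicate block (Psmb8 in each, at an adjusted p of 0.0203 under the block), 2 with the filter of 5 CPM in 3 libraries, 0 with length and GC offsets and 0 to 5 when a library was left out (5 without WT necrotic replicate 3, 0 without KO necrotic replicate 1). Over all genes, calls of the alternative fits that kept every library of the compared groups varied too. They called 359 to 1829 in WT (main 1318) and 947 to 1820 in KO (1052). For KO against WT they called 449 to 1618 with viable (827) and 645 to 1857 with necrotic supernatant (1150). A higher count of the 10 therefore need not be particular to them. The difference between the responses gave 0 genes of the 10 throughout. Over all genes it gave 209 calls without a filter, 0 in the other fits and 1064 at an unadjusted p under 0.05. The average over genotypes gave 1 to 3 when a library was left out, and the average over supernatants gave 2 with length and GC offsets. The cause of these shifts was not tested.

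The labels tie the replicate numbers to no shared animal or batch, and deviations of same-numbered libraries from their group means correlated at -0.09 to 0.14, with no comparison in which all 3 exceeded 0.1. Of 6 libraries, 6 correlated best with their own number between KO necrotic and KO viable, 5 between KO viable and WT viable, 3 between WT necrotic and WT viable and 1 between KO necrotic and WT necrotic, which is a hint from the data and not from the design. The replicate block changed no other count of the 10 genes. Over all genes, the compared groups alone called 359 for WT (main 1318), 1820 for KO (1052) and 449 for KO against WT with viable supernatant (827). No filter called 1618 with viable (827) and 1857 with necrotic supernatant (1150), and length and GC offsets called 645 with necrotic supernatant. Leaving out a library gave 385 to 2015 calls for WT (fewest without WT viable replicate 2), 383 to 1277 for KO (without KO necrotic replicate 3), 227 to 1060 with viable (without KO viable replicate 2) and 163 to 1605 with necrotic supernatant (without KO necrotic replicate 1). When a library was left out, the log2 ratio of H2-D1 to H2-Ab1 rose by 0.66 to 0.76 and that of Nlrc5 to Ciita by 0.37 to 0.50, with adjusted p-values of the exact permutation test of 0.025 to 0.05 and 0.025 to 0.075. For KO minus WT, Psmb9 to Psmb6 lay between 0.0367 and 0.0953 and Psmb10 to Psmb7 between -0.0345 and 0.0332.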

Other observations

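In the contrasts averaged over genotypes or supernatants, which were chosen after the data were seen, 4 of 23 genes (17.4%) of the nonclassical class I list and the list of peptide trimming, folding and transport passed edgeR's quasi-likelihood test in each, beside 19.4% of all genes for supernatant and 20.5% for genotype, so the share is no higher than over all genes. With necrotic against viable supernatant, Calr (mean log2 fold change 0.14, SE 0.03, adjusted p = 0.0111) and the translocon subunit gene Sec61b (0.14, SE 0.04, adjusted p = 0.0346) rose, and the peptide-trimming aminopeptidase gene Erap1 (-0.17, SE 0.06, adjusted p = 0.0491) and the nonclassical class I gene H2-T24 (-0.42, SE 0.08, adjusted p = 0.00315) fell. For KO against WT, Lnpep (0.60, SE 0.12, adjusted p = 0.00356) and Mr1, which presents vitamin B metabolites to T cells (0.31, SE 0.09, adjusted p = 0.0249), were higher, and Sec61b (-0.16, SE 0.04, adjusted p = 0.0180) and Calr (-0.10, SE 0.03, adjusted p = 0.0481) were lower. Mean levels were 1286 CPM for Calr, 107 CPM for Sec61b, 53.7 CPM for Erap1, 26.4 CPM for H2-T24, 84.8 CPM for Lnpep and 7.45 CPM for Mr1.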
